A study of Mus musculus with 2 samples.

Results

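The late-annotated miRNA genes of mouse from Mir6896 to Mir7094 were examined in small-RNA libraries of embryonic heart. Members were taken by number alone: every listed gene whose Ensembl identifier carries a symbol of Mir plus a number between those of Mir6896 and Mir7094 in GENCODE M21, copies and letter suffixes included. This gave 178 of the 1973 listed miRNA genes, 4 of them with a suffix (Mir6973a, Mir6973b, Mir7036b and Mir7094-2). The annotation holds 201 symbols in the range, and the other 23 were not analysed here. The samples were pooled whole hearts of healthy B6NCrl mouse embryos of both sexes at embryonic day 16.5, sequenced as microRNA-seq. All belong to a single untreated group with 2 libraries, labelled biological replicates; replicate 2 pooled 41 embryos, and the labels used here give no number for replicate 1. Bulk heart mixes many cell types, so fewer cells of a type and less RNA per cell cannot be told apart.

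Most miRNAs are cut from long primary transcripts by the nuclear enzyme Drosha, and the hairpin is then cut by Dicer into a 5p and a 3p arm. A mirtron skips the Drosha step. Its hairpin is a short intron that the spliceosome releases, so the hairpin begins at the 5′ splice site, with GU, and ends at the 3′ splice site, with AG. In a tailed mirtron only 1 end of the hairpin is a splice site, and the rest of the intron forms a tail that is trimmed away. The seed, bases 2 to 8 of the mature arm, does most of the target pairing.

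By position, nearly all of these genes sat at an intron end, but few were complete introns. The hairpin filled an annotated intron of its host, with both ends within 5 bases of the intron's ends, in 15 of 178 genes (8.43%). In 151 genes (84.8%) only the hairpin's 3′ end lay at an intron's 3′ end, which is the arrangement of a 5′-tailed mirtron. Only the 5′ end matched in 3 genes, Mir6936 in Sirt7, Mir6977 in Ptprs and Mir6927 in Mllt6. The remaining 9 genes were exonic, and 7 of those ran 6 or 7 bases past an intron's 3′ end into the next exon. In all, 39 members overlapped an exon of at least 1 annotated transcript of a host, retained introns included. By position alone, the description of the set as mostly mirtrons therefore holds in this annotation if tailed arrangements are counted, and not for complete introns alone. Whether the hairpins are released by splicing or cut by Drosha was not tested. The other listed genes with a symbol were at an intron's 3′ end in 35 of 1716 cases (2.04%), against 166 of 178 members (93.3%).

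The match at the 3′ splice site was exact in most cases. Of the 166 genes at an intron's 3′ end, 165 ended on its last base and 1 lay a single base off. The hairpin ended in AG in 165 of 178 members (92.7%), compared with 113 of 1716 other genes (6.59%), and began with GU, written GT in the genome, in 31. An intron ends in AG at its 3′ splice site, so the AG share follows from the positions and is not separate support for them. The introns filled by a hairpin were 67 to 137 bases long, with a median of 83. Those with only the 3′ end matched had a median of 488 bases. Member hairpins were short, with a median of 66 bases against 94 for the other genes, and their median GC content was 57.8% against 50.0%.

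The 5 hairpins printed here show the contrast between hairpins that fill an intron and hairpins in the tailed arrangement. They are the genes with at least 10 counts in each library that filled an intron, and the most abundant that ended at an intron end without overlapping any annotated exon and have a RefSeq hairpin (build GRCm38.p6). Capitals mark the GU and AG that lie at the splice sites.
Mir6944: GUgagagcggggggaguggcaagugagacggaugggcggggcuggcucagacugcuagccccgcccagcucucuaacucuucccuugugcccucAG
Mir7018: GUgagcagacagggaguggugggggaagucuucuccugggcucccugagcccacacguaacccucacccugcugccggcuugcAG
Mir7068: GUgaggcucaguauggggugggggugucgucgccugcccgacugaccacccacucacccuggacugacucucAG
Mir7083: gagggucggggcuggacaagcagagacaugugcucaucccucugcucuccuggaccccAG
Mir6975: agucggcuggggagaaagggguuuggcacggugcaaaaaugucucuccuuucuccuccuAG
The first 3 carry both splice-site ends. Mir7083 and Mir6975 carry only the terminal AG, since the intron continues upstream of the hairpin.

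The arms followed the same layout. RefSeq gave a hairpin for 161 of 178 members and 312 mature sequences from 163 members. Of 155 arms named 3p, 121 ended in AG (78.1%), against 53 of 467 3p arms of the other listed genes (11.3%), and 119 ended on the intron's last base. The 3p arms were rich in pyrimidines, with a median of 71.4% C or U against 54.5% in the other genes. The 5p arms were rich in G, with a median of 45.5% against 27.3%. An arm that ends on the intron's last base carries its AG, so the AG share of the 3p arms also follows from position. Base content was not tested apart from position. The mature arms of the best-covered members are given 5′ to 3′ with the seed in capitals, both arms for the first 4 genes and the 3p arm for the others. Among these 10 members, C and U made up 52.4% of miR-6900-3p, the lowest of the 3p arms, and 90.0% of miR-6975-3p, the highest.
miR-6944-5p: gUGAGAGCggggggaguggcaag
miR-6944-3p: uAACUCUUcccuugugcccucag
miR-7083-5p: uCGGGGCUggacaagcagaga
miR-7083-3p: uCUGCUCUccuggaccccag
miR-7018-5p: gUGAGCAGacagggaguggugggg
miR-7018-3p: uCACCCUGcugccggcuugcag
miR-7068-5p: gUGAGGCUcaguauggggugg
miR-7068-3p: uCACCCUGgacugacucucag
miR-6975-3p: uCUCUCCUuucuccuccuag
miR-6900-3p: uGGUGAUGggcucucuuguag
miR-6990-3p: aGCCCUGCcucuuccuggcag
miR-7019-3p: uCACCUUGgccgccucucugcag
miR-6945-3p: uCUGAGCUcugcccuucccau
miR-7036b-3p: uUCCUGGUgggccucggggucc
The 3p arms of Mir7018 and Mir7068 share the seed CACCCUG, also held by miR-7023-3p. The miR-6945-3p arm stops 2 bases before the intron's end, and miR-7036b-3p lies at no intron end. Seeds were otherwise diverse: the 312 arms held 287 different seeds, 21 seeds were shared by at least 2 members, and no seed was in more than 3. No RefSeq sequence entry was found for Mir6951.

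Each of the 178 members lay inside a host gene of its own strand, and 177 had a protein-coding host. The other listed genes with a symbol had no host in 861 of 1716 cases (50.2%). There were 174 different hosts; Arap3, Cmip, Skiv2l and Srebf1 each held 2 members. Of 43 heart and striated muscle genes on a list of possible hosts, such as Myh6, Myh7, Ttn and Ryr2, none hosted a member. The share of all genes that host a member was not computed, so a lack of muscle hosts was not tested. Mir6923 filled an intron of Myh3, an embryonic myosin gene that was not on that list, and had 0 counts in both libraries.

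The libraries held 6473482 sense counts (replicate 1) and 5841568 (replicate 2) at the listed genes, and levels are given as CPM, sense counts per 1000000 of that total. CPM is not divided by hairpin length, so an order of genes is one of read counts. A count of 0 allows up to 3 counts, or 0.463 CPM in replicate 1 and 0.514 CPM in replicate 2, and intervals and limits cover counting error only. By mean level, the heart muscle miRNAs Mir208a, Mir208b and Mir499 stood at 6556, 58261 and 2594 CPM, while Mir1a-1 and Mir133a-1 had 11 to 19 counts. The smooth muscle Mir143 and Mir145a stood at 96423 and 1288 CPM, and the endothelial Mir126a at 85049 CPM. The erythroid Mir451a and Mir144 stood at 1511 and 368 CPM, and the leukocyte Mir223 at 402 CPM. The neural Mir9-2 had 0 counts in both libraries, and the hepatocyte Mir122 had 1035 and 942. Mir1a-1, Mir133a-1 and Mir9-2 have near-identical copies, so their low counts do not show absence. Reads matching several places, 29.5% and 31.9% of all reads, were counted in no gene.

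Most members were seen, but at very low levels. At least 1 sense count was found for 134 of 178 members (75.3%) in either library, against a background of 36.7% of all listed genes, and for 91 in both libraries. The limit of 10 counts in each library was met by 11 members (6.18%), against 18.5% of all listed genes. Both backgrounds include 922 listed genes with another symbol or none, of which 44 were seen (4.77%) and 6 met the limit (0.651%). Those genes lower both backgrounds, and shares by miRNA number are given below. No count was found in either library for 44 members, 24 were seen in replicate 1 only and 19 in replicate 2 only. Over both libraries together, 53 members had 1 to 3 counts, 53 had 4 to 9, 17 had 10 to 19 and 11 had 20 or more. The median member had 1 count in each library.

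Together the members held 619 counts in replicate 1 and 562 in replicate 2. This was 0.00956% of sense counts (Wilson 95% interval 0.00884% to 0.0103%) and 0.00962% (0.00886% to 0.0104%), a mean of 0.00959% ± 0.000041 (SD, n = 2). The summed level was thus nearly equal in the 2 pools, at 95.6 and 96.2 CPM. The 11 members past the limit held 45.4% of the members' counts. Their median level was 3.20 CPM, against 122 CPM for the other genes past the same limit, and the highest member ranked 275th of 365.

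The shares of genes seen and past the limit were set side by side across miRNA numbers, which grow with the date of registration. Genes with numbers under 1000 were seen about as often, 352 of 474 (74.3%), but 285 of them (60.1%) met the limit. Genes from 1000 to below 3000 were seen in 45 of 82 cases (54.9%) with 22 past the limit (26.8%), and those from 3000 to below 6000 in 83 of 122 cases (68.0%) with 28 past the limit (23.0%). Genes from number 6000 up to the first member were seen in 10 of 100 cases, with 5 past the limit. Genes with numbers above Mir7094 were seen in 57 of 95 cases (60.0%), with 8 past the limit. The median count over both libraries of the genes seen was 5 for the members and 1341 for numbers under 1000. It was 24 and 15 for the next 2 bands and 4 for numbers above Mir7094. For the 10 genes seen from number 6000 up to the first member it was 32.5, so the median did not fall steadily with number.

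**Figure D1:**
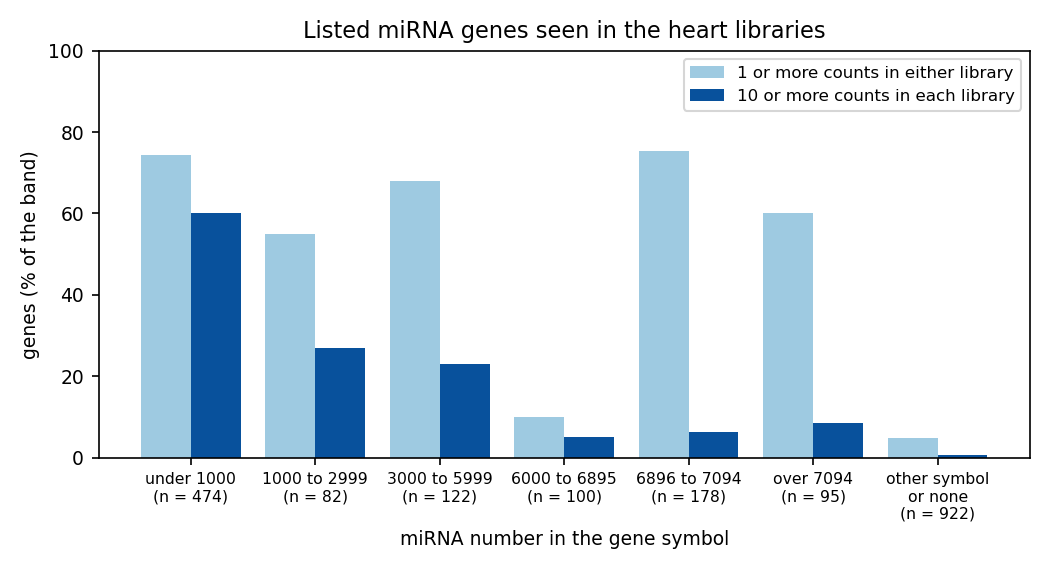
Percent of listed genes in each band of miRNA number with at least 1 count in either library (light bars) and with 10 or more counts in each library (dark bars). Mir6896 to Mir7094 have a light bar of 75.3% and a dark bar of 6.18%, while numbers under 1000 reach 74.3% and 60.1%.

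All counts at the members were on the host's strand, in the column taken as sense. The opposite-strand column held 0 counts for each of the 178 members in both libraries, beside 619 and 562 sense counts. Over all listed genes the opposite-strand column held 391227 and 379629 counts, equal to 6.04% and 6.50% of the sense counts, spread over 58 genes. The tables count reads per gene without position or length, so 5p arms, 3p arms and other pieces of the intron or host transcript cannot be told apart.

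Levels were then compared between positions. Of the 15 genes that filled an intron, 11 were seen and 3 met the limit, with 160 and 111 counts in the 2 libraries, 85 and 52 of them from Mir6944. Of the 151 genes at an intron's 3′ end, 112 were seen and 7 met the limit, with 431 and 406 counts. The median count over both libraries was 2 for the former and 3 for the latter. All 3 genes at an intron's 5′ end and 8 of the 9 exonic genes were seen. Among other listed genes, 6 of 8 that filled an intron were seen and 4 met the limit, with a median of 19 counts over both libraries. Of the 27 other genes at an intron's 3′ end, 18 were seen and 5 met the limit. Their median of 3 counts was the same as for the members, but they held 8767 and 7302 counts in the 2 libraries. The highest total over both libraries was 15811 among them and 80 among the 3′-end members. By length of the intron, 33 of 40 of the 3′-end members were seen in introns of up to 150 bases, 26 of 37 in longer ones up to 500, 39 of 55 beyond that up to 2000 and 14 of 19 over 2000 bases. In the same order, 0, 1, 4 and 2 of them met the limit.

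The most abundant member was Mir6944 (ENSMUSG00000098341.1; mm10 chromosome 13, 55477681 to 55477776, minus strand). It is intron 9 of Dbn1, which encodes the actin-binding protein drebrin, and the intron and the hairpin were both 96 bases long. Mir6944 had 85 counts in replicate 1 and 52 in replicate 2, or 13.1 CPM (exact 95% interval 10.5 to 16.2) and 8.90 CPM (6.65 to 11.7). Its mean was 11.0 ± 2.99 CPM (SD, n = 2), and it alone held 11.6% of the members' counts.

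Mir7083 (chromosome 9, 21809941 to 21810000, minus strand) ended intron 38 of Dock6, a guanine nucleotide exchange factor, an intron of 1833 bases. Its counts were 41 and 39, or 6.33 and 6.68 CPM, a mean of 6.50 ± 0.24 CPM. The 2 libraries differed less for Mir7083 than for Mir6944, and both of its values lay below both values of Mir6944.

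Mir7018 (chromosome 4, 137538286 to 137538370, plus strand) is intron 43 of Hspg2, which encodes the basement membrane proteoglycan perlecan, an intron of 85 bases. Its counts were 39 and 16, or 6.02 and 2.74 CPM, the widest gap between libraries among the 11 in fold terms. Mir7068 (chromosome 8, 72470016 to 72470089, minus strand) is intron 4 of Cherp, which encodes an RNA-binding protein of the nucleus and endoplasmic reticulum. It had 10 and 17 counts, or 1.54 and 2.91 CPM, and an annotated retained-intron transcript of Cherp also covers it. Mir6944, Mir7018 and Mir7068 were the only complete introns past the limit.

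The next members had the tailed arrangement by position. Mir6945 (chromosome 13, 55507625 to 55507692, minus strand) ended intron 5 of Pdlim7, a PDZ and LIM domain protein of the actin cytoskeleton, with 24 and 21 counts (3.71 and 3.59 CPM). Mir6951 (chromosome 15, 38490473 to 38490547, minus strand) ended intron 11 of Azin1, an antizyme inhibitor that regulates polyamine synthesis, with 23 and 17 counts (3.55 and 2.91 CPM). Mir6975 (chromosome 17, 35244075 to 35244135, plus strand) ended intron 2 of Ddx39b, an RNA helicase of splicing and mRNA export, with 16 and 23 counts (2.47 and 3.94 CPM). The counting intervals of these 3 genes overlapped in both libraries, so their order is not resolved at this depth.

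Another 3 of the 11 are described together because their hosts have mitochondrial or energy roles. This grouping was not set beforehand, and the share of such hosts among all members was not computed. Mir6900 (chromosome 1, 92464483 to 92464542, minus strand) ended intron 4 of Ndufa10, a subunit of respiratory complex I, with 19 and 17 counts (2.94 and 2.91 CPM). Mir6990 (chromosome 19, 6914196 to 6914286, minus strand) ended intron 2 of Esrra, a nuclear receptor that drives mitochondrial genes, with 11 and 15 counts (1.70 and 2.57 CPM). Mir7019 (chromosome 4, 138316132 to 138316200, minus strand) ended intron 5 of Pink1, a kinase of mitochondrial quality control, with 10 and 13 counts (1.54 and 2.23 CPM). Mir6900 was close to equal in both libraries, and Mir6990 and Mir7019 lay near the limit in replicate 1. Mir6990 also lay in an exon of a processed transcript of Esrra, and Mir7019 and Mir6945 overlapped untranslated exon sequence of another coding transcript of their hosts.

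Mir7036b (chromosome 5, 34574151 to 34574213, plus strand) was the single member past the limit at no intron end. It lay in untranslated exon sequence of a coding transcript of Add1, which encodes the membrane skeleton protein adducin, and 237 bases into intron 1 of another transcript. Its counts were 11 and 17 (1.70 and 2.91 CPM). Neither its hairpin nor its 3p arm ended in AG.

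**Figure D2:**
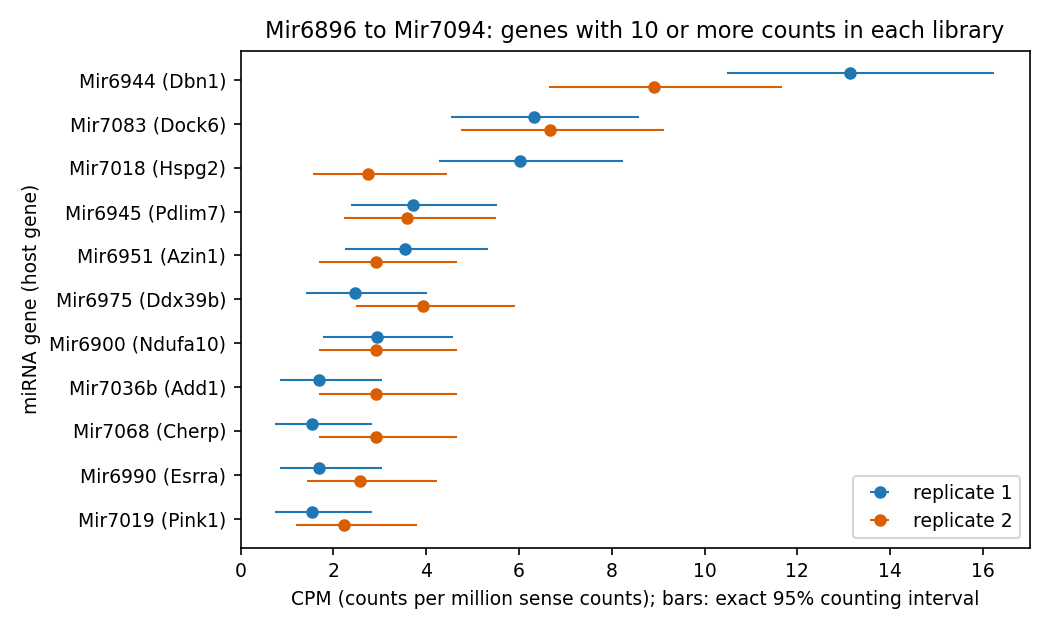
CPM of the 11 genes with 10 or more counts in each library, with 1 point per library and bars for the exact 95% counting interval. Mir6944 leads at 13.1 and 8.90 CPM, and the 8 genes below Mir7018 lie between 1.54 and 3.94 CPM with overlapping intervals.

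Just under the limit, 5 members had 10 or more counts in a single library. They were Mir7069 in Farsa with 14 and 5 counts, Mir6958, a complete intron of Dennd6b, with 10 and 9, and Mir7010 in Gucy1a1 with 10 and 8. Mir6934 in Tbc1d16 had 5 and 13, and Mir7070, a complete intron of Fbxw9, had 4 and 10. These 5 were named after their values were seen.

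Mirtrons registered earlier, listed for comparison, ranged from a few counts to levels above every member. Mir3102, a complete intron of Arhgef17, stood at 133 ± 6.45 CPM, Mir1981 in Marc2 at 89.2 ± 7.51 CPM and Mir877 in Abcf1 at 46.8 ± 8.57 CPM (SD, n = 2). Mir702 in Plod3 stood at 18.9 ± 1.61 CPM; its hairpin of 109 bases began 9 bases before an intron of 102 bases, so by the 5-base rule it was classed as exonic. These 4 of the 5 exceeded the leading member Mir6944 in both libraries. Mir1224, a complete intron of Vwa5b2, had 4 and 1 counts, within the range of the members. Mir320 and Mir484, which are made without Drosha but are not introns and are not among the 5, stood at 611 ± 15.2 and 2032 ± 253 CPM.

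The 2 pools were last compared for the 11 members past the limit. Mir7018 was 2.13-fold lower in replicate 2, with a log2 ratio of -1.09 (exact 95% interval -2.05 to -0.24) and an adjusted p of 0.0229 by the exact binomial test, two-sided, with Benjamini-Hochberg adjustment over 365 genes. It was the only member of 11 called, at an adjusted p under 0.05 and a 2-fold difference, against a background of 3.29% of the genes tested. With no minimum fold it was still the single member called, against 46.3% of the genes tested. Mir6944 was 1.45-fold lower in replicate 2 and did not pass (adjusted p = 0.0785, exact binomial test). For the other 9 members the counting interval of the ratio included 0 on the log2 scale. Mir7068, for example, had a log2 ratio of 0.90 with an interval of -0.27 to 2.23. The median absolute log2 ratio was 0.53 for the 11 members and 0.20 for all 365 genes tested. The other genes past the limit had median counts of 780.5 in replicate 1 and 677 in replicate 2. Counting error is wider at the members' lower counts, so neither these ratios nor the shares called were compared at equal depth. With 5 rather than 0.5 added to each count, the ratio of Mir7018 was -0.92 and the 2-fold limit was not met. The test compares these 2 libraries and not conditions.

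**Figure D3:**
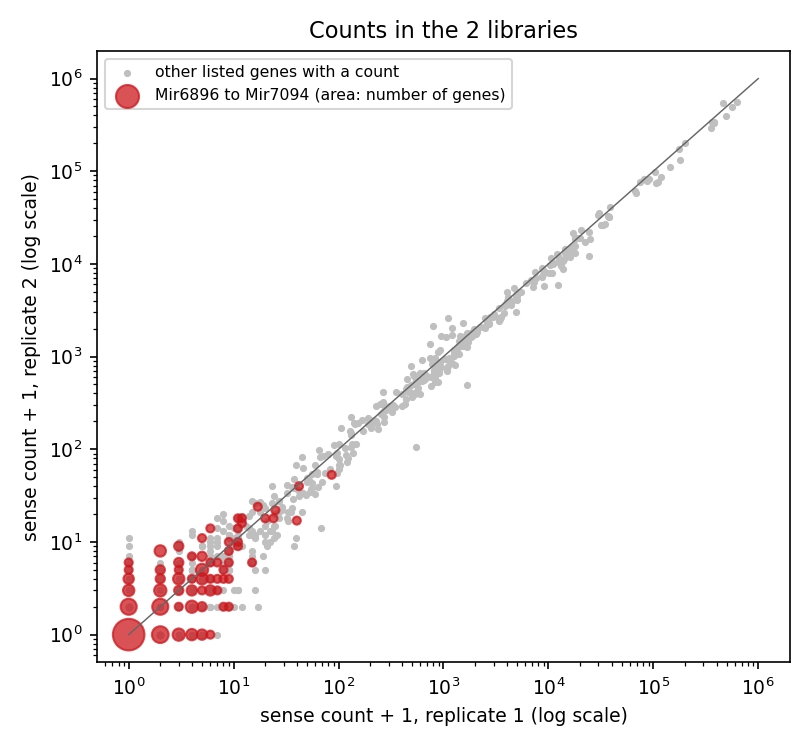
Sense counts plus 1 in replicate 1 and replicate 2 (log scales) of the members, with point area growing with the number of genes at the same pair of counts, and of other listed genes with a count (grey). The members fill the low corner up to 85 and 52 counts, and 44 of them sit at 0 in both libraries.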

How the data were processed

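The deposited tables hold raw read counts per miRNA gene, made by the authors on build mm10 with annotation M4, per the lists deposited with each library. The aligner, counter and read trimming are not given in the sources used here. Of the 3 count columns (either strand and each strand), the third column of the table was used as sense, since its gene total is the larger strand total in both libraries. The first 4 lines of each table count reads assigned to no gene and were left out of totals: unmapped reads (22.4% and 17.2% of reads), reads matching several places (29.5% and 31.9%), reads outside genes (2.99% and 2.66%) and ambiguous reads (0).

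Symbols, coordinates, introns and hosts came from GENCODE M21 (same build, matched without version; all 178 members had the same version), and sequences from RefSeq. A host is a gene of the same strand, not a miRNA gene, that spans the hairpin. Intron numbers follow the closest matching transcript. Hairpins were checked for shared 20-base sequences: Mir6970, Mir7065 and Mir7094-2 had one, with at most 2 counts per library.

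With a single group, edgeR's quasi-likelihood test had no contrast. The 2 libraries were compared by an exact binomial test (two-sided) given TMM sizes (edgeR 4.0.16, R 4.3.3), over the 365 genes with 10 or more counts in each library, with Benjamini-Hochberg adjustment (statsmodels 0.14.6, scipy 1.17.1, Python 3.11.15). The test was checked on simulated counts with counting error only and changes larger than that of Mir7018. That check does not cover variation between pools beyond counting error. DESeq2 1.42.0 size factors were an alternative. Log2 ratios used 0.5 added to each count. Members and lists were chosen with earlier results of these data known. Named members were those past the limit, the 10 highest, those called, and any with over 3 opposite-strand counts in both libraries or a host on the muscle list; others are marked in the text. The earlier mirtrons and tissue markers were named for comparison.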

Additional observations from a re-analysis of the deposited data

How the results depend on the processing

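The number of members past the limit depended on the limit. It was 11 with 10 counts in each library, 91 with 1 count, 20 with 5 counts, 3 with 20 counts and 28 with 10 counts over both libraries together. Leaving out each replicate gave 13 to 14, and the unstranded column and leaving out members with shared sequence both gave 11. The members' share of sense counts, 0.00959%, was 0.00903% with the unstranded column, 0.00422% of all reads, 0.00849% without Mir6944 and 0.0106% without the most abundant listed gene in the total, and 0.00956% to 0.00962% when either replicate was left out. Members that filled an intron numbered 14 at 0 or 2 bases and 18 at 10 bases. Asking only for the hairpin's 3′ end, an alternative added after seeing the data, gave 166 within 5 bases and 173 within 10 bases. Hosts of either strand gave 178 members with a host and coding hosts only 177. The call of Mir7018 was the single call among members with total-count scaling, with no minimum fold, with DESeq2 size factors, without a count filter and with the unstranded column. With 5 added to each count there were 0 calls and its log2 ratio was -0.92; by construction a larger added count shrinks ratios of low counts, and 2 members had an unadjusted exact p under 0.05. The log2 ratio of Mir6900 changed sign, from 0.013 to -0.012 with total-count scaling and -0.0043 with DESeq2 size factors. No paired analysis was possible because there is a single group. Members with fewer than 10 counts in at least 1 library (1.54 CPM in replicate 1, 1.71 CPM in replicate 2) were left out of the comparison of libraries by choice of filter; without it 134 members were tested.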
